A study of Arabidopsis thaliana with 18 samples.

Results

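Leaf splicing was compared between the Arabidopsis thaliana accessions Ler-1 and Col-0, with 2 RNA-seq libraries of each. The files list splicing events with the reads that support each of their 2 forms. All events that stand in both groups' lists under the same type, coordinates and gene locus were taken. The Col-0 list holds 6171 events and the Ler-1 list 5916, and 5666 are shared. Of these, 5382 events in 2677 gene loci had at least 10 reads in each of the 4 libraries and were all tested, and the other 284 shared events were not. At this threshold the 30 events whose lowest library held 10 reads had a median absolute difference of 7.58 percentage points between the accessions, and the 30 events with 9 reads had 7.47 points.

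The study holds 18 libraries in 9 groups, which are 5 accessions and 4 F1 hybrids that have Col-0 as a parent. Col-0 is the accession of the reference genome and Ler-1 is a Landsberg erecta accession. Both carry no transgene or treatment by the labels. All seedlings were raised on Murashige and Skoog medium with 1% sucrose under 16 h of white light (100 µmol per square metre and second, 22 °C) and 8 h of darkness at 18 °C, and RNA was taken at 14 days from the first leaf. The labels do not say that the 2 libraries of a group came from separate plants or harvests, so p-values measure the spread between these libraries, which may be technical.

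Introns are cut out of a pre-mRNA between a donor site at their 5′ end, nearly always GT, and an acceptor site at their 3′ end, nearly always AG. A cell can leave an intron in the mRNA, shift the donor or the acceptor, or pass over an exon. In plants intron retention is the most common of these choices, and a shifted frame can expose a transcript to nonsense-mediated decay. PSI, the percent of an event's reads that come from its second form, is used throughout. The second form leaves the intron in, keeps the exon, or takes the acceptor or donor that gives the shorter intron, so in every type a higher PSI means that more sequence stayed in the mRNA.

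The sequences that the results below return to are shown first, because they hold the sites of events described in detail or have unusual letters. They are reference letters of RefSeq's TAIR10.1, read 5′ to 3′ on the strand of the gene. The Ler-1 letters are not used here. In the first 3 pairs, capitals mark the first 2 and the last 2 bases of a retained intron, in DI19 (chr1:21073888-21073903 and chr1:21073794-21073813, minus strand), COAB (chr1:4200101-4200116 and chr1:4200177-4200196, plus strand) and SOS4 (chr5:15065507-15065522 and chr5:15065591-15065610, plus strand).
DI19 intron start: tttaagATatcctttt
DI19 intron end: ttaatgagttttACttgcag
COAB intron start: agcatgGCaagagtct
COAB intron end: atttgtgaaaccAGacagag
SOS4 intron start: acaattGTacttaact
SOS4 intron end: aattttgttgtaAGatcgag

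The next sequences hold alternative sites, and capitals mark the stretch that only the second form keeps. They are the acceptors of AT5G18230 (chr5:6022905-6022925, minus strand) and COR27 (chr5:17198602-17198619, minus strand). The donors are those of LARP6a (chr5:18757781-18757799, plus strand), AT5G56020 (chr5:22684786-22684811, plus strand) and MENG (chr1:8296234-8296258, minus strand).
AT5G18230 acceptors: gtttgtgcagATGTAGaccat
COR27 acceptors: tgttttaaagCAGaggta
LARP6a donors: caacgGCATTGgtactttt
AT5G56020 donors: ttccgGCACCTTTAATGTgtaatcca
MENG donors: atagaGTGAGCTCACTGgtaaaatc

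Of the 5382 tested events, 272 in 195 gene loci differed between Ler-1 and Col-0 at an adjusted p under 0.05 in edgeR's quasi-likelihood test of the reads of both forms, which is 5.05% of the events tested. PSI was higher in Ler-1 in 109 of them (2.03% of all tested) and lower in 163 (3.03%). The PSI values of the 2 Col-0 and the 2 Ler-1 libraries stood apart without overlap in all 272 of these, as they did in 44.0% of all tested events. The median absolute difference was 15.6 points among the called events and 2.05 points over all tested, where the median signed difference was -0.0945 points. A difference of at least 50 points was seen in 34 called events, and 180 (3.34% of all tested) differed by at least 10 points. At the other end, 19 differed by less than 1 point. The count of calls rests on all 4 libraries, since it was 141 without Col-0 replicate 1, 178 without Col-0 replicate 2, 76 without Ler-1 replicate 1 and 68 without Ler-1 replicate 2.

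**Figure D1:**
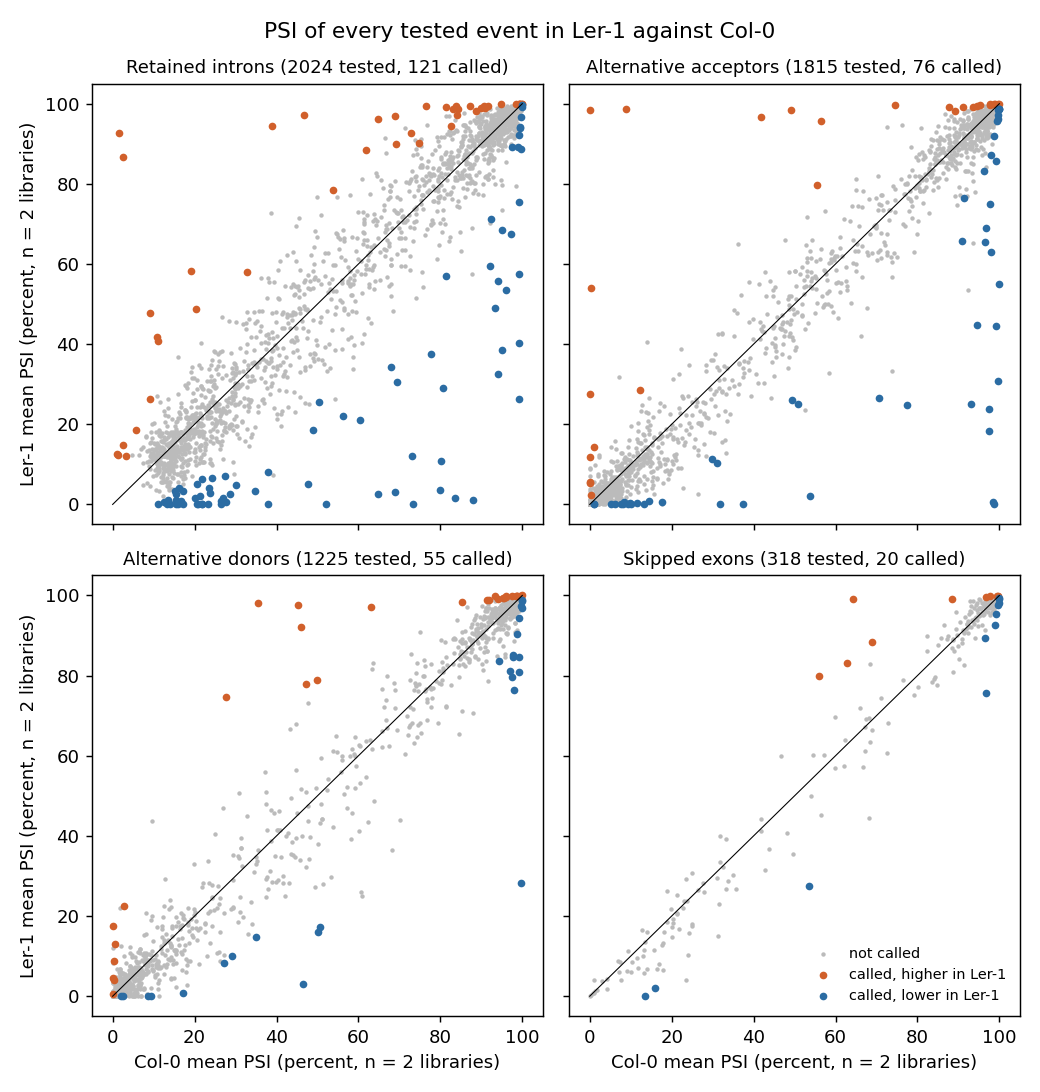
Mean PSI (percent, 2 libraries each) of the 5382 tested events in Col-0 (horizontal axis) and Ler-1 (vertical axis), by event type; the line marks equal PSI, grey points were not called and coloured points were called at an adjusted p under 0.05 (edgeR). Most events lie near the line, and of the 272 called events 109 lie above it and 163 below it.

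In 128 of the 272 called events, or 47.1%, a form had no read in both libraries of either accession, against 11.8% of all tested events. The form without reads was the first in Col-0 in 34 called events and the first in Ler-1 in 57. The second form had no read in Col-0 in 8 called events and none in Ler-1 in 31. In 2 events, the acceptors of ZML1 and of AT1G70620, each accession had reads of a different form only. DESeq2 did not call these 2 events (adjusted p of 0.1 and 0.12), which edgeR called.

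The deposited tables held 5537295 and 5697477 reads over the tested events in Col-0 replicates 1 and 2, and 4789071 and 5720803 in Ler-1. The median event held 112 reads in a library, so an event without reads of a form allows a share of up to 3 reads of its total, which covers counting error only. The called events held more reads per library than the tested events, with medians of 134.5 and 113. Replicates differed by a median of 2.05 points in Col-0 and 1.91 points in Ler-1, and read totals of replicates differed by far more than sampling noise (chi-square per degree of freedom of 16.4 and 11.8), so none was counted as a repeat of another. Genes of leaf photosynthesis held much of the read total. RBCS1A, the Rubisco small subunit, held 18.8 to 19.9% of the reads in Col-0 and 24.1 to 24.3% in Ler-1, and CA1, a carbonic anhydrase of the chloroplast, 5.16 to 5.62% and 4.78 to 4.81%. Library totals and gene shares are sums over tested events, 5 of them in RBCS1A and 18 in CA1. A read that events share can count more than once in these sums. Of 30 markers of guard cells, trichomes, vasculature, epidermis and meristem, 3 had a tested event (FMA, MYB60 and ATML1), and each held at most 0.00384% of the reads in any library.

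Retained introns made up 121 of the called events, 5.98% of the 2024 tested. Retention was lower in Ler-1 in 77 of them and higher in 44, and 99 differed by at least 10 points. Where the Col-0 PSI was 20 to 80, 35 fell and 12 rose among 752 tested, against 14 and 12 among 400 with a PSI under 20 and 28 and 20 among 872 with a PSI over 80. Introns that TAIR10.1 annotates were called in 88 of 1287 cases (6.84%) and other retained stretches in 33 of 737 (4.48%). Without Ler-1 replicate 1 or 2, 10 or 6 introns rose and 27 fell in both cases. Without Col-0 replicate 1 or 2, 26 or 23 rose and 51 or 63 fell.

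DI19, a zinc finger protein gene first known for its induction by drought, had the largest fall in retention. PSI was 77.8% and 98.2% in the Col-0 libraries and 1.38% and 0.742% in the Ler-1 libraries, or 88.0% ± 14.5 against 1.06% ± 0.449 (SD, n = 2; edgeR adjusted p = 1.7e-05). The reads behind these values are few in Col-0 and many in Ler-1. In Col-0, 25 and 1 reads supported splicing and 91 and 112 supported retention, while in Ler-1 930 and 936 reads supported splicing and 13 and 7 retention. The stretch (chr1:21073800-21073897, 98 nt, coding span) begins with AT and ends with AC in the reference. AT-AC introns are a rare class removed largely by the minor spliceosome, and the letters after the AT shown above are those typical of its donors. It lies inside an annotated intron of 115 nt (chr1:21073794-21073908), whose last bases, ttgcag, follow the AC. By these coordinates, splicing of the annotated intron is neither form of the event. The event's read total also rose in Ler-1 by a log2 of 3.26 (edgeR adjusted p = 5.2e-05), from 20.2 and 18.9 to 197 and 179 counts per 1e6 tested reads (CPM).

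COAB encodes phosphopantothenoylcysteine synthetase, an enzyme of coenzyme A synthesis, and its called intron (chr1:4200107-4200190, 84 nt, coding span, annotated) has a GC donor in the reference. Retention was 54.9% and 49.5% in Col-0 and 0% in both Ler-1 libraries, where 274 and 276 reads were spliced and none retained, which allows a share of up to 0.545%. All Col-0 values lay above all Ler-1 values (52.2% ± 3.84 against 0%, SD, n = 2; edgeR adjusted p = 1.2e-05). The read total of the event was 14.1 and 15.1 CPM in Col-0 and 57.4 and 52.3 in Ler-1, a rise of 1.91 on the log2 scale (edgeR adjusted p = 0.0006). Retained reads numbered 45 in each Col-0 library and 0 in Ler-1, and spliced reads 36 and 45 against 274 and 276.

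SOS4 encodes a pyridoxal kinase of vitamin B6 salvage that is known from salt-sensitive mutants, and 2 of its events describe the same junction. Retention of the 92 nt intron (chr5:15065513-15065604) was 67.4% and 62.3% in Col-0 and 2.08% and 3.33% in Ler-1, with groups far apart (64.8% ± 3.59 against 2.71% ± 0.884, SD, n = 2; edgeR adjusted p = 1.7e-05). The reads spliced from the donor of this intron, shown above, were 30 and 45 in Col-0 and 93 and 86 in Ler-1. The same reads are the second form of a donor choice in which the other donor lies 33 nt upstream. That form made up 27.0% and 28.3% in Col-0 and 76.9% and 72.3% in Ler-1 (edgeR adjusted p = 0.00044). The upstream donor held 80 and 113 reads in Col-0 and 27 and 32 in Ler-1, while the total over the retention event stayed at a log2 difference of 0.00. Reads from the upstream donor also lack the 92 nt but are not in the retention PSI. Retention among all these reads was therefore lower than given above.

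Retention rose most in AT3G07030, which encodes an Alba DNA/RNA-binding protein. The intron (chr3:2223835-2223937, 103 nt in Col-0, coding span) was retained at 3.23% and 0% in Col-0 and at 94.7% and 90.6% in Ler-1, a rise from 1.61% ± 2.28 to 92.7% ± 2.91 (SD, n = 2; edgeR adjusted p = 1.7e-05). By the coordinates in the Ler-1 list the same intron is 72 nt longer in Ler-1. In AT5G03830, annotated as a CDK inhibitor P21 binding protein, retention was 42.3% and 35.3% in Col-0 and 93.8% and 95.0% in Ler-1, where no read was spliced (edgeR adjusted p = 0.0039). AT2G17787, annotated as cylicin, went from 15.8% and 22.2% to 54.4% and 62.2% (edgeR adjusted p = 0.021), with an intron 5 nt shorter in Ler-1. The largest rises also held AT5G42530 and AT3G07510, and in all these genes both Ler-1 libraries lay above both Col-0 libraries. AT5G42530 had far fewer reads in Ler-1 than in Col-0, as given below with the read totals. The retention junctions of AT5G42530 and AT3G07510 are also the first forms of an acceptor and a donor event. In these the share of the other site rose by 53.8 points in AT5G42530 and 62.5 points in AT3G07510. Reads spliced at the other site are not in the retention PSI.

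The other large falls in retention were in AT2G14255, AT5G58980, AT2G39280 and AT1G70620, which went from means of 73.4 to 99.2% in Col-0 to 0 to 26.4% in Ler-1. In AT2G39280 and AT1G70620 the retention PSI leaves out reads spliced at the other acceptor of their acceptor events, given below. In AT1G70620 all Col-0 reads of the acceptor event used that other acceptor. AT1G27520, a glycosyl hydrolase family 47 gene, was named for its read total. Its intron was retained at 84.6% and 75.6% in Col-0 and at 5.88% and 15.8% in Ler-1 (edgeR adjusted p = 0.0014), and its read total fell by 2.14 on the log2 scale. The flowering regulator FLK, an RNA-binding protein, went from 26.4% ± 2.53 to 0.885% ± 1.25 (SD, n = 2; edgeR adjusted p = 0.00067). With each library left out in turn, the calls of DI19, COAB, SOS4, AT3G07030, AT5G42530, AT2G14255, AT2G39280, AT1G70620 and FLK held in all 4 refits. Without Ler-1 replicate 1 or 2, AT5G03830 had adjusted p-values of 0.071 and 0.093, and AT1G27520 0.076 and 0.054. AT5G58980 had 0.055 without Ler-1 replicate 1, and AT3G07510 0.052 without Ler-1 replicate 2. AT2G17787 was called in none of the 4 (0.054 to 0.17).

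**Figure D2:**
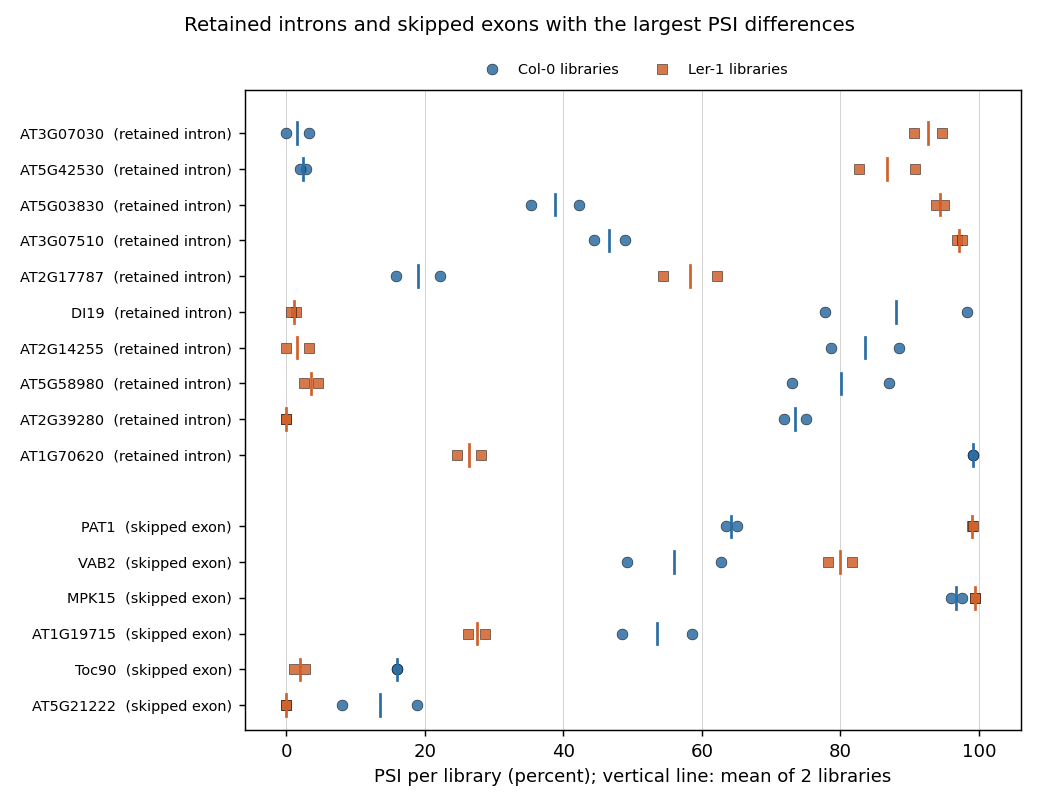
PSI in each library (percent; circles Col-0, squares Ler-1, vertical lines the mean of 2 libraries) for the retained introns and skipped exons with the largest rises and falls among called events. In every gene shown the Col-0 and Ler-1 libraries do not overlap; DI19 falls from 77.8 and 98.2% to 1.38 and 0.742%, and AT3G07030 rises from 3.23 and 0% to 94.7 and 90.6%.

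Alternative acceptors were called in 76 of 1815 events (4.19%), with the upstream acceptor, which keeps more sequence, used less in Ler-1 in 49 and more in 27. Both acceptors end in AG in the reference in 73 of the 76 called and in 1777 of the 1815 tested. The largest differences were near complete switches. AT5G18230, which encodes a NOT2/NOT3/NOT5 family protein, a family known from the CCR4-NOT complex of mRNA deadenylation, kept the 6 nt ATGTAG of its coding span in 99.7% of reads in both Col-0 libraries and in 20% and 41.8% in Ler-1. No Col-0 read of 680 used the downstream acceptor of the AT5G18230 event. The groups stood at 99.7% ± 0.00973 and 30.9% ± 15.4 (SD, n = 2; edgeR adjusted p = 1.6e-05). The AT5G18230 read total fell by 1.85 on the log2 scale beside it (edgeR adjusted p = 0.00089).

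AT1G14570, annotated as a UBX domain-containing protein, kept 63 nt of coding span in 91.7% and 94.6% of reads in Col-0 and 24.3% and 26% in Ler-1. With 147 to 168 reads in each library, this was a fall from 93.1% ± 2.02 to 25.2% ± 1.18 (SD, n = 2; edgeR adjusted p = 1.2e-05), and the read total differed by a log2 of 0.05. COR27, a cold-regulated repressor in the circadian clock, has acceptors only 3 nt apart, the CAG of which is shown above. The upstream acceptor held 75.2% and 79.7% in Col-0 and 24.8% and 25% in Ler-1, so the preference of the accessions was opposite (77.4% ± 3.18 against 24.9% ± 0.119, SD, n = 2; edgeR adjusted p = 0.00015). The choice adds or removes CAG in the coding span without a shift of frame.

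GA3, the ent-kaurene oxidase of gibberellin synthesis, kept 39 nt of coding span in 97.3% and 98.8% of reads in Col-0 and in 67.7% and 58.1% in Ler-1 (edgeR adjusted p = 0.00072), and the longer intron is 12 nt shorter in Ler-1. PIL6, also called PIF5, is a bHLH factor that phytochromes act on. Its upstream acceptor in the 5′ UTR, 11 nt before the other, held 11.2% and 8.81% in Col-0 and no read in Ler-1, where 232 and 307 reads used the downstream acceptor (edgeR adjusted p = 0.00079). AT3G26080, a plastid-lipid associated protein of the fibrillin family, went the other way. Its event keeps 132 nt, had no second-form read in Col-0 and stood at 23.1% and 31.8% in Ler-1, from 12 and 21 reads (edgeR adjusted p = 0.0027). The second acceptor of AT3G26080 ends in AT in the reference, the longer intron is 69 nt shorter in Ler-1, and the read total fell by 2.45 on the log2 scale.

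The rises in acceptor use that completed the largest 5 were those of AT1G70620, GIP1, AT2G39280, AT5G42530 and PAT1, with Ler-1 means of 54.1 to 98.7%. The falls were completed by ZML1, AT4G38520 and AT2G32910, with Ler-1 means of 0 to 18.3% after 97.6 to 98.6% in Col-0. In AT2G39280 the acceptor event and the retained intron above share their junction reads, which were 8 and 5 in Col-0 and 26 and 35 in Ler-1, so they are not separate evidence. The same holds for AT1G70620, where the junction of the retained intron above is the second form of the acceptor event, and for AT5G42530, where it is the first form. The reads of AT5G42530 were far fewer in Ler-1 than in Col-0, as stated above. With each library left out in turn the calls of AT5G18230, AT1G14570, COR27, GA3 and PIL6 held, as did those of the 8 genes named in this paragraph except AT2G39280, and DESeq2 did not call ZML1 and AT1G70620, as given above. AT2G39280 had adjusted p-values of 0.055 and 0.077 without Ler-1 replicate 1 or 2, and AT3G26080 of 0.052 and 0.12.

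Alternative donors were called in 55 of 1225 events (4.49%), 29 towards the downstream donor, which keeps more sequence, and 26 towards the upstream donor. LARP6a, a La-related RNA-binding protein, kept GCATTG in 99.6% and 99.5% of reads in Col-0 and in 27.0% and 29.6% in Ler-1 (edgeR adjusted p = 8.6e-06). No read of 487 in Col-0 used the upstream donor, which has GC in the reference, against 199 of 273 and 201 of 286 in Ler-1. AT5G56020, a Got1/Sft2-like vesicle transport protein gene, also has an upstream GC donor in the reference, and its 13 nt stretch was kept in 97.9% and 98.3% of reads in Col-0 and 75.0% and 77.8% in Ler-1 (edgeR adjusted p = 0.015). No read of 103 in Col-0 used the GC donor of AT5G56020, and 6 and 5 did in Ler-1.

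MENG, a methyltransferase of phylloquinone synthesis, the quinone of photosystem I, kept 12 nt of coding span between its donors in 53.7% and 46.4% of reads in Col-0 and 15.4% and 16.9% in Ler-1. The fall was from 50.1% ± 5.17 to 16.1% ± 1.06 (SD, n = 2; edgeR adjusted p = 0.0061). AT1G67700, annotated as a multidrug resistance protein, gave the deepest of these events with 1663 to 1989 reads in each library. Its 14 nt stretch was kept in 51.8% and 49.6% of reads in Col-0 and in 17.9% and 16.7% in Ler-1 (edgeR adjusted p = 0.0025). AT3G57470, an insulinase family peptidase gene, went from 40.5% and 52.4% to 4.82% and 1.20% for a stretch of 92 nt, with an intron 10 nt shorter in Ler-1 (edgeR adjusted p = 0.00044).

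The rises in donor use were led by AT3G07510, PAT1, SOS4, IQD30 and ARF1, which moved from Col-0 means of 27.7 to 63.0% to Ler-1 means of 74.6 to 98.1%. The donor event of AT3G07510 shares its first-form reads, 21 and 14 in Col-0 and none in Ler-1, with the retained intron named above. CYTC6A, a cytochrome of the thylakoid lumen, rose from 93.8% and 93.1% to 99.8% in both Ler-1 libraries (edgeR adjusted p = 0.0017) while its read total rose by 2.19 on the log2 scale. Left-out libraries did not end the calls of LARP6a, AT3G57470, AT3G07510, PAT1, SOS4 and CYTC6A. Without Ler-1 replicate 1 or 2 the adjusted p-values were 0.12 and 0.13 for MENG, 0.055 and 0.077 for IQD30 and 0.068 in both cases for ARF1. AT1G67700 had 0.054 without Ler-1 replicate 2, and AT5G56020 was called in none of the 4 refits (0.063 to 0.17).

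**Figure D3:**
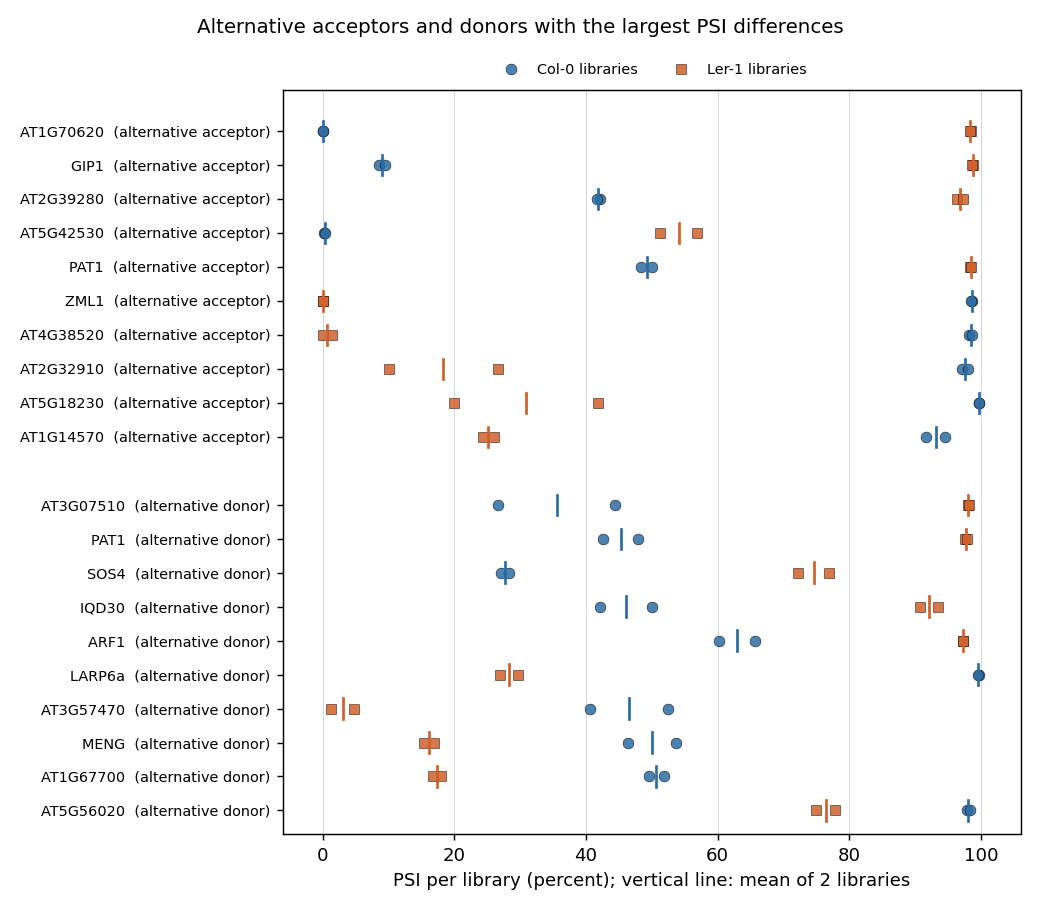
PSI in each library (percent; circles Col-0, squares Ler-1, vertical lines the mean of 2 libraries) for the alternative acceptors and donors with the largest rises and falls among called events. The libraries of the accessions do not overlap in any gene shown; LARP6a falls from 99.6 and 99.5% to 27.0 and 29.6%, while AT5G18230 shows the widest spread between Ler-1 libraries with 20 and 41.8%.

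Skipped exons were called in 20 of 318 events (6.29%), 9 with more and 11 with less inclusion in Ler-1. On the 5′ UTR side, 8 of 48 tested events were called (16.7%), but these 8 come from 5 loci, and in the coding span 8 of 176 were called (4.55%), in 8 loci. In the 5 loci, PAT1, VAB2 and the pair AT1G19715 and AT1G19720 gave 2 events each that share exons or junction reads. Toc90, a receptor of the chloroplast protein import machinery, included an exon of 80 nt on the 5′ UTR side in 15.9% and 16.0% of reads in Col-0 and in 2.74% and 1.19% in Ler-1 (edgeR adjusted p = 0.021). AT5G21222, a protein kinase family gene, included a 188 nt exon in 18.9% and 8.11% in Col-0 and in no read of 173 in Ler-1 (edgeR adjusted p = 0.011), and the interval is 44 nt shorter in Ler-1. MPK15, a MAP kinase, moved by 2.73 points from 95.9% and 97.6% to 99.5% in both Ler-1 libraries (edgeR adjusted p = 0.046). None of these calls held in all refits: Toc90 had adjusted p-values of 0.064 to 0.25 and MPK15 of 0.062 to 0.26 (0.059 and 0.073 with DESeq2), while AT5G21222 held only without Col-0 replicate 2 (0.0083; 0.091 to 0.19 in the others).

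VAB2, subunit B of the vacuolar proton pump, and PAT1, a GRAS factor of phytochrome A signalling, each had 5 called events, and the locus pair AT1G19715 and AT1G19720 had 6. The VAB2 events share the reads of their first form, 152 and 114 in Col-0 and 69 and 65 in Ler-1, and all 5 rose, so they are not separate evidence. For its exon of 92 nt, inclusion was 49.2% and 62.8% in Col-0 and 78.3% and 81.6% in Ler-1 (edgeR adjusted p = 0.033). The 5 VAB2 calls held without Col-0 replicate 2 and were lost without any other library (adjusted p of 0.14 to 0.29) and with DESeq2 (0.073 to 0.11). The PAT1 events also share reads: 3 of them have the same first form, with 84 and 113 reads in Col-0 and 1 in each Ler-1 library, and the other 2 share another that had 10 and 15 reads in the Col-0 libraries and none in those of Ler-1. The latter 2 calls of PAT1 were lost without Ler-1 replicate 1 (0.067 for both) or 2 (0.075 and 0.079). In the AT1G19715 and AT1G19720 pair, annotated as a lectin and a pentatricopeptide repeat protein, all 6 events fell, and an exon of 103 nt went from 48.4% and 58.6% to 28.7% and 26.3% (edgeR adjusted p = 0.029). This call was lost without each library (0.053 to 0.24) and with DESeq2 (0.1). A second called event of the same exon, beside another splice site, held only without Col-0 replicate 2 (0.029; 0.052 to 0.12 in the others), and the files do not assign the reads to a single gene of the pair.

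The letters of the splice sites were compared across all tested events. A first form with GT and AG ends was called in 254 of 5120 events (4.96%), and a first form with a GC donor and AG in 6 of 62 (9.68%). In 5 of those 6, COAB, LARP6a and AT5G56020 among them, the spliced form with the GC donor had the larger share in Ler-1. Among acceptor and donor events, a second form with a GC donor and AG was called in 0 of 17. With GT and AG in the second form, 128 of 2978 (4.3%) were called. Retained stretches with other ends, such as that of DI19, were called in 11 of 170 (6.47%). In 104 tested and 3 called retained stretches the ends read CT and AC, which are GT and AG on the opposite strand. The library protocol in the labels does not say that strand was kept, so reads of a gene and of an antisense partner could not be told apart there.

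The Ler-1 list gives each event also in coordinates of a Ler-1 assembly, so the length of the same interval could be compared between the lists. The interval of the first form, an intron or the span over a skipped exon, had the same length in 4557 tested events and another length in 825. Of events with another length 122 were called, or 14.8%, against 150 or 3.29% of those with the same length. The 122 calls lie in 80 of 463 tested loci and the 150 in 120 of 2357, and events of a locus can share reads. The share was 5.78% where the lengths differed by 1 nt, 10.4% for 2 to 3 nt, 27.7% for 4 to 10 nt, 23.5% for 11 to 30 nt and 48.1% (13 of 27) for 31 to 100 nt. The 13 calls at 31 to 100 nt lie in 8 of 17 tested loci. By type, differing and equal lengths gave 20.9% against 4.33% for retained introns, 13.2% against 2.38% for acceptors, 12% against 2.64% for donors and 13.9% against 3.77% for skipped exons. Retained introns longer in Ler-1 fell in 19 of their 24 calls, while those shorter in Ler-1 rose in 11 of 18. For read totals the shares called were 12.6% where lengths differed and 7.24% where they did not. How reads of each accession were mapped is not given in the sources used here, and its part in these shares was not tested. The share stayed above that of equal length under each alternative, and without 1 library it was 3.76 to 9.58% against 0.812 to 2.17%.

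**Figure D4:**
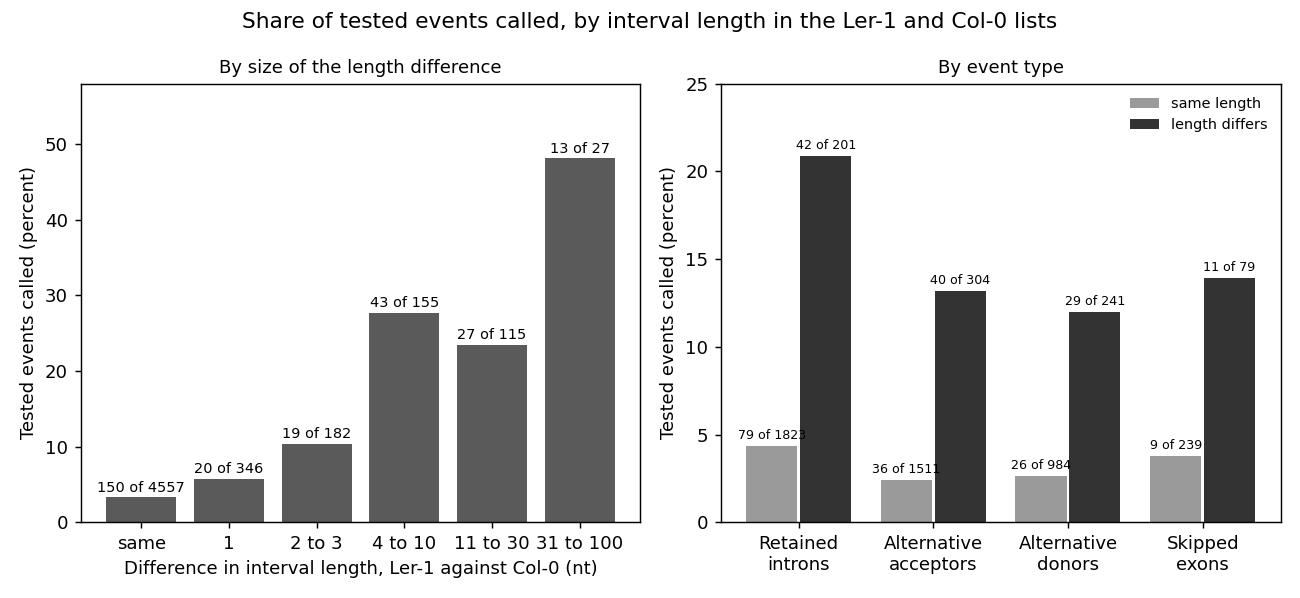
Percent of tested events called (edgeR, adjusted p under 0.05), by the difference in interval length between the Ler-1 and Col-0 lists (left, in nt) and by event type for equal and differing length (right); labels give called of tested. The share is 3.29% at equal length and 48.1% at 31 to 100 nt, and it is higher with a length difference in all 4 event types.

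Alternative sites within the coding span keep the reading frame where their distance is a multiple of 3 nt. Acceptors a multiple of 3 nt apart were called in 26 of 409 events (6.36%) and other acceptors in 15 of 739 (2.03%). For donors the counts were 20 of 207 (9.66%) and 10 of 455 (2.20%). COR27, MENG, GA3, AT5G18230 and AT1G14570 belong to the first class. At any place in the gene, the coding span included, acceptors a multiple of 3 nt apart were called in 42 of 654 events (6.42%). Other acceptors were called in 34 of 1161 (2.93%). For donors at any place the counts were 26 of 395 (6.58%) and 29 of 830 (3.49%). For skipped exons of any place the counts were 4 of 96 (4.17%) at a multiple of 3 and 16 of 222 (7.21%) at other lengths, and no test was made of these class shares. Donors 1 to 12 nt apart were called in 9 of 114 events (7.89%) and acceptors at this distance in 11 of 328 (3.35%). All these distances are in Col-0 coordinates. Among events with another interval length in Ler-1, the distance between the sites differed in 85 tested and 16 called acceptor events. In donor events it differed in 104 tested and 10 called, so the class of such events may not hold in Ler-1.

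The genes matched from 11 lists of pathways and cell types held 310 tested events in 100 genes. Of these, 19 events in 11 genes were called (6.13%, against 5.05% of all tested), 11 higher and 8 lower in Ler-1. None of 102 events in 29 splicing factor genes was called by edgeR, with 8 (7.84%) at an unadjusted p under 0.05, against 792 (14.7%) of all tested events. DESeq2 and both limma fits called 0 of them as well, and the fit of 10 libraries called 2. Their median PSI difference was -0.42 points. Light signalling had 6 of 29 events called in 2 genes, PAT1 (5 events that share reads, all higher) and PIL6. Photosynthesis genes had 5 of 77 called, in CA1, RBCS1A and LHCB5, with 4 higher and 1 lower. In LHCB5, an antenna protein of photosystem II, 36 nt of coding span, not annotated as an intron and with CC and GC at its ends in place of GT and AG, were retained at 99.1% and 99.5% in Col-0 and 80.5% and 70.2% in Ler-1 (edgeR adjusted p = 0.00039), a call that held with each library left out. The RBCS1A event moved by 0.0187 points and that of CA1 by 0.748 points, with 62 and 42 first-form reads of RBCS1A in Col-0 and 0 in Ler-1. Without 1 library the calls were lost in RBCS1A (0.062 to 0.12) and, without Ler-1 replicate 1 or 2, in CA1 (0.071 and 0.081).

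Abiotic stress and ABA genes had 3 of 21 events called, all in SOS4. The circadian clock list had 1 of 32 (COR27), flowering time 1 of 19 (FLK), hormones other than ABA 1 of 16 (GA3) and immunity 1 of 5 (WRKY70). The hormone list also holds the symbol ARF1, but the called donor event of ARF1 is not in these counts. WRKY70, a factor of salicylate responses, spread widely between replicates, with retention of 12% and 6.03% in Col-0 and 17.0% and 35.6% in Ler-1 (edgeR adjusted p = 0.041), and without Ler-1 replicate 2 its adjusted p was 0.69. It was also lost without Col-0 replicate 2 (0.15) and Ler-1 replicate 1 (0.1) and with DESeq2 (0.3). RNA surveillance genes had 0 of 5 called by edgeR (0 at an unadjusted p under 0.05) and the glucosinolate list 0 of 1 (1 at an unadjusted p under 0.05), and DESeq2 and limma called none in either. Of the cell type markers, 1 of 3 events was called, in FMA, a guard cell factor, where retention of an unannotated stretch fell by 5.24 points (edgeR adjusted p = 0.024; 0.08 to 0.2 with 1 library left out).

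The reads over an event, both forms together, were tested as a second readout with edgeR and TMM factors. Totals differed in 434 events of 267 loci (8.06% of all tested), 193 higher (3.59%) and 241 lower (4.48%) in Ler-1. A total follows the RNA level of the gene and also how many of its reads were counted. Reads spliced at a site outside the 2 forms of an event are not in its total. In bulk leaf, fewer cells of a type and less RNA per cell cannot be told apart. Of the 272 events with a called PSI, 52 (19.1%) also had a called total. The calls of totals numbered 242 without Col-0 replicate 1, 508 without Col-0 replicate 2, 25 without Ler-1 replicate 1 and 18 without Ler-1 replicate 2.

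The largest rises in total among called splicing events were those of DI19, GIP1, CYTC6A and COAB. GIP1, a small protein of the gamma-tubulin complex, had 2.09 and 1.84 CPM over its 18 nt acceptor event in Col-0 and 16.8 and 14.4 in Ler-1, a log2 difference of 2.97 (edgeR adjusted p = 0.00083). Over its other acceptor event, 8 nt wide, the GIP1 total differed by a log2 of 0.14. The reads of the acceptor that both events share were 7 and 8 in Col-0 and 80 and 76 in Ler-1. The PSI call of the 18 nt GIP1 event (edgeR adjusted p = 0.0048) was lost without Col-0 replicate 1 (0.065) and without Ler-1 replicate 1 (0.071) or 2 (0.068). CYTC6A had 22.1 and 23.9 CPM in Col-0 and 98.4 and 112 in Ler-1 (edgeR adjusted p = 0.00033). The largest falls were those of AT5G42530 (log2 of -8.17), AT3G26080, AT1G27520 and AT2G14255. AT1G27520 went from 15.7 and 14.2 to 3.35 and 3.41 CPM (edgeR adjusted p = 0.0024), and AT3G26080 from 18.1 and 17.7 to 2.51 and 3.98 (edgeR adjusted p = 0.0019). Both Ler-1 libraries lay outside the range of both Col-0 libraries in each of these.

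**Figure D5:**
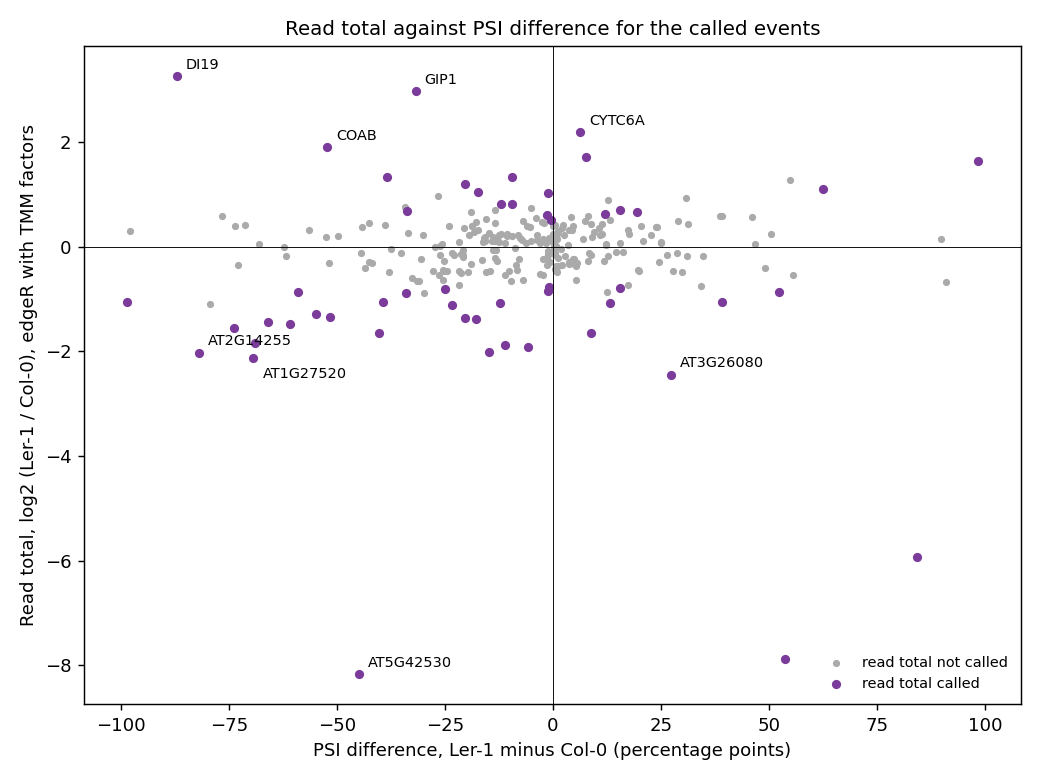
Difference in PSI (Ler-1 minus Col-0, percentage points) and log2 ratio of the read total (Ler-1 over Col-0, edgeR with TMM factors) for the 272 called events; purple points mark the 52 whose total was also called. DI19 joins a loss of retention to a total higher by a log2 of 3.26, and AT5G42530 has the lowest totals.

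Of the tested events, 246 are absent from the list of at least 1 other accession, and 15 of them were called (6.10%, against 5.0% of the 5136 in all lists), 11 higher and 4 lower in Ler-1. The 4 that fell were DI19, TBP1, DIN4 and AT3G18500. TBP1, the TATA-binding protein, retained an intron of 105 nt at 25.9% and 15.4% in Col-0 and in no read of 117 in Ler-1 (edgeR adjusted p = 0.0061). DIN4, a subunit of the branched-chain keto acid dehydrogenase, retained 87 nt at 17.2% and 13.7% in Col-0 and in no read of 231 in Ler-1 (edgeR adjusted p = 0.0022). The TBP1 and DIN4 introns lie 2552 nt apart on chromosome 3. AT3G18500, of the DNAse I-like superfamily, went from 10.3% and 16.7% to 1.52% and 0.488% (edgeR adjusted p = 0.0035). These 3 calls were lost without Ler-1 replicate 1 or 2, with adjusted p-values of 0.14 and 0.098 for TBP1, 0.052 and 0.064 for DIN4 and 0.067 and 0.11 for AT3G18500.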

How the data were processed

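The measurements are RNA-seq libraries of leaf mRNA. Per the deposited file headers, each table gives an event's junction read counts for its first form (Junc1) and second form (Junc2) and PSI, which the authors give as a fraction and which equals Junc2 / (Junc1 + Junc2 + 1) in every row. It is printed here as a percent, and an event of few reads cannot reach 100%. The submitters' processing notes name TAIR10, HISAT2 and edgeR 3.0.8. Their roles, the counting rule and how Ler-1 reads were mapped are not given in the sources used here. Names hold the exon bases beside an intron, so an intron was taken to start 1 base inside them. All event coordinates lie within the chromosomes of TAIR10.1, from which gene annotation and sequence were taken.

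Counts of both forms were tested with edgeR 4.0.16 (R 4.3.3) quasi-likelihood, with 1 term per library, a form term and a form by Ler-1 term, over all 5382 events with at least 10 reads in each of the 4 libraries. P-values were adjusted by Benjamini-Hochberg over all of them and called under 0.05. Junc1 + Junc2 totals were tested in the same way with TMM factors, and CPM values are edgeR's counts per 1e6 of these totals. DESeq2 1.42.0, limma 3.58.1, other read minimums, other library sets, other scalings, a replicate block and left-out libraries were alternatives. Scripts were tested on simulated data. Named events were, among called events without overlap of the libraries and with 1 event per gene, those with the largest gain and loss of PSI: 5 and 5 for each of retained introns, acceptors and donors, 3 and 3 for skipped exons. To these came the 4 and 4 largest among events not in all accessions' lists, at most 15 in listed genes, the 3 genes with most calls, and the 4 and 4 largest in read total. The event types, members and lists were chosen with earlier results of these data known. Of 350 listed symbols 327 matched a locus, and ARF1 was not among them. Replicate numbers do not pair the libraries by the labels.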

Additional observations from a re-analysis of the deposited data

How the results depend on the processing

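With all libraries kept, the counts of called events stayed within 1.5 times under all alternatives except limma on the deposited PSI. That test called 50 events, 23 higher and 27 lower, 48 of at least 10 points, and 9 retained introns higher and 17 lower, and the cause was not tested. DESeq2 called 191, of which 189 were also called by edgeR. The fit of 10 accession libraries, over events common to all lists, called 358, with 257 of the 272 among them. The other 15 of the 272 are absent from another accession's list and did not enter that fit. Leaving out 1 library gave 68 to 178 called events, 19 to 66 higher and 49 to 112 lower, 60 to 138 of at least 10 points, 6 to 26 retained introns higher and 27 to 63 lower, and 18 to 508 read totals. Fewer libraries enter those fits, and the lone library is assumed to vary like the other group. Of the 66 named events, 54 kept their call with DESeq2, 55 with limma on log2 odds and 22 with limma on PSI, and 20 in all alternatives that use all libraries. The replicate numbers share only a number: deviations of same-numbered libraries correlated at -0.067 in log2 odds and -0.184 in log2 totals. With the replicate block 296 events and 542 read totals were called. A crossed pairing, added after seeing the data, called 415 read totals. With 2 libraries a group and a median of 112 reads per event, small shifts in shallow events could not be detected at this depth.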

Other observations

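The 2 libraries of the F1 hybrid between Col-0 and Ler-1 were read over the same events. Their mean PSI lay between the means of the parents in 265 of the 272 called events. These parental libraries chose the events, so the count is a description. Over the called events of at least 10 points, the hybrid stood at a median of 44.8% of the way from Col-0 to Ler-1. Single events lay far from that point. DI19 retention was 7.08% and 5.94% in the hybrid libraries, near the 1.38% and 0.742% of Ler-1, and COAB retention was 14.0% and 7.69%, near the 0% of Ler-1. The event read totals of DI19 and COAB were higher in Ler-1 than in Col-0, as given above. Reads pooled from both parents would therefore also lie nearer to Ler-1 in these events. Whether the hybrid departs from such a pool was not tested. AT5G42530, whose reads are rare in Ler-1, had a retention of 5.46% and 4.06% in the hybrid, near Col-0 with 2.86% and 2.04%. SOS4 retention was 38.8% and 43.1%, between the parents.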
